A study of Mus musculus with 34 samples.

Results

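The comparison described here is between embryoid bodies at day 7 of a mouse differentiation course, labelled EB (5 libraries), and epiblast-like cells at day 2 of the same course, labelled EpiLC (5 libraries). These 10 libraries, chosen by the stage in their names, are part of 34 RNA-seq libraries that also cover days 0 and 3 to 6, epiblast stem cells and embryonic fibroblasts. All 10 come from CBMS1, a female embryonic stem cell line from a cross of the mouse strains CBA and MsM, with no allele or transgene named in the labels. The stem cells were kept in 2i and LIF and converted for 2 days to epiblast-like cells, which model the epiblast around implantation. For the day 7 group, 2000 such cells per well were then aggregated and kept for 5 days in GK15 medium without added growth factors, which is close to the SFEBq method of neural induction. As models the groups are limited in that they come from a single line, that an aggregate holds a mixture of cell types, and that bulk RNA gives 1 value per gene over all of its cells.

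Background for the readout is as follows. Epiblast cells that receive no Nodal, BMP or Wnt ligand from outside tend towards neural fate. The neural tube that follows is patterned along its dorsoventral axis by Sonic hedgehog from notochord and floor plate, and along its head to tail axis by retinoic acid, FGF and Wnt, which are read out by Hox genes. Progenitors then leave the cycle under control of Notch signalling and proneural factors. These steps run in parallel with the loss of the pluripotency network and of the germline programme, which is shut by DNA methylation and Polycomb complexes.

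Values are FPKM, fragments per kilobase of transcript scaled to the mapped fragments of the library, as deposited, so that levels of different genes are compared per length. A gene was called where its difference on the log2(FPKM + 1) scale, day 7 minus day 2, was at least 1 in size with a Benjamini-Hochberg adjusted p under 0.05 over all 14595 genes tested in limma; this scale understates the change of genes with low values. Every adjusted p below is from that fit, and SE is the standard error of the difference. That fit took in all 34 libraries, so SE and p-values rest on the spread within all groups of the series. They do not measure the spread of the day 7 and day 2 libraries alone. Nothing in the labels says that libraries of a day came from separate cultures beyond their dates, so this spread may in part be technical. The summed FPKM of the table lay between 485696 and 516411 in the day 7 libraries and between 599388 and 635871 in the day 2 libraries, and the number of genes at 1 FPKM or more lay between 11953 and 12212 at day 7 and between 11383 and 11591 at day 2. Read depth is unknown. For day 2 libraries 1 and 3 and day 7 library 1 the entry for cell type disagrees with the title and source about the stage, and they were placed by title. Both entries of Hmgcs1, an enzyme of the sterol pathway that most cells use, are listed at 0 in all 34 libraries, so an exact 0 in this table can be a failed estimate and is written as listed at 0. Per-library values below are in the order of libraries 1 to 5.

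Of the genes tested, 3804 were called, 26.1% of the total. The 2200 higher genes were 15.1% and the 1604 lower genes 11.0%. The libraries of the days did not overlap for 9024 genes, 61.8%, and the median difference over all genes was 0.02. In 786 of the higher genes every day 2 library lay under 1 FPKM, and in 404 of the lower genes every day 7 library did. Between 4 and 5 in size on the log2 scale were 59 higher and 33 lower genes, and at 5 or more were 20 higher and 7 lower genes. The calls are set out by list of related genes below, beside the 15.1% and 11.0% of all genes tested. The lists were written with earlier results of these data known, so a share above these may in part come from that choice. It is a description and not a test. Only genes that reached 1 FPKM in 3 or more of the 34 libraries were tested. A listed member low at day 2 could pass this filter through day 7 alone, which raises the share called higher among tested members.

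**Figure D1:**
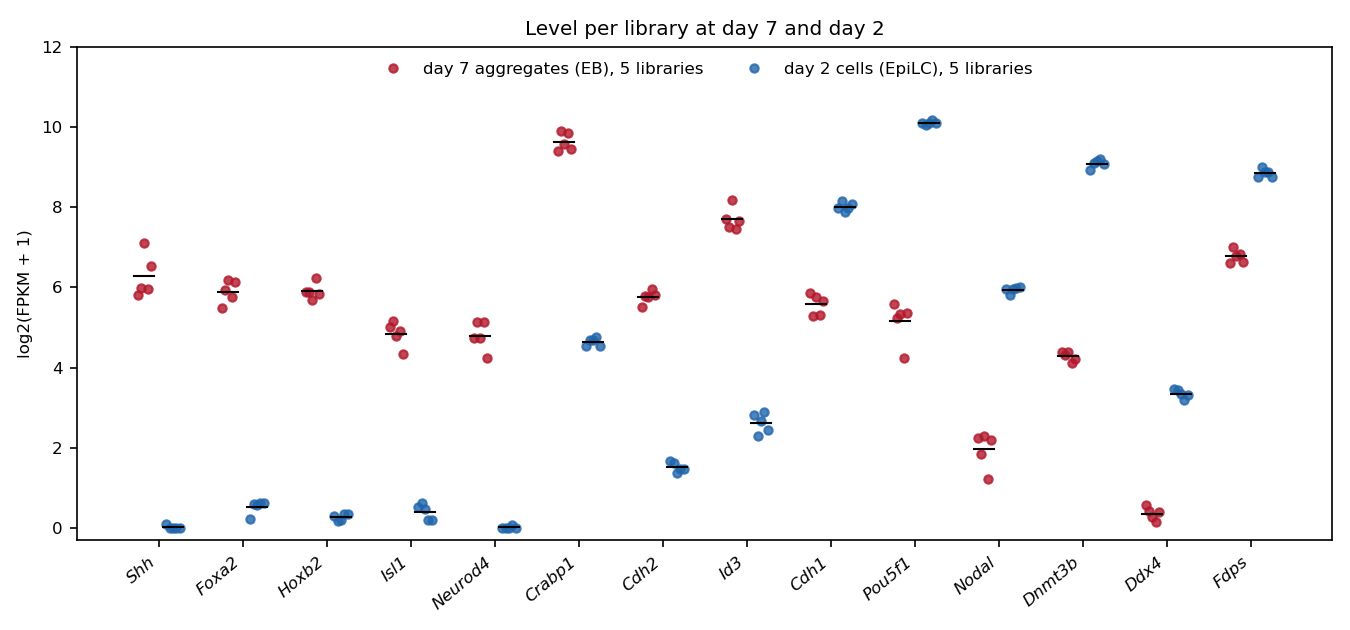
Level of 14 genes in each library as log2(FPKM + 1), day 7 aggregates (red, left of each pair) and day 2 cells (blue, right); points are libraries (5 per day) and bars are means. The points of the days do not overlap in any of the 14 genes, as holds for 61.8% of all genes tested. An example is Crabp1 at 672 to 962 FPKM at day 7 and 22.1 to 26.1 FPKM at day 2.

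Sonic hedgehog signalling changed from the ligand to its target genes. Shh, the ligand, had the largest rise on the log2 scale among entries of a single gene (Shh lies at chr5:28783380-28793641 in the mm9 table). Its values were 55.2, 62, 136, 61.1 and 92.4 FPKM in the day 7 libraries, against 0.067 FPKM in day 2 library 1 and a listing at 0 in the other four. The groups stood far apart, by 6.26 (SE 0.23, adjusted p 2.12e-20), with library 3 the highest of day 7. The other ligands Dhh and Ihh stayed under 1 FPKM in every day 7 and day 2 library and were not tested. Among receptors, Ptch1, which is itself a target of the pathway, had 74.6, 92.6, 62.5, 84.3 and 93.5 FPKM at day 7, against 9.1, 11.5, 15.1, 14.1 and 12.8 FPKM at day 2, a difference of 2.61 (SE 0.18, adjusted p 7.49e-14). Smo, the signal transducer, averaged 46.7 ± 3.82 FPKM at day 7 and 25.3 ± 2.52 FPKM at day 2 (SD, n = 5 each), a difference of 0.86 that did not reach the size required. Of the transcription factors, Gli1, the usual readout of active signalling, had 34.6, 34.7, 25.4, 41.6 and 43.3 FPKM at day 7 and 1.47, 2.79, 2.24, 2.56 and 2.17 FPKM at day 2, a difference of 3.50 (SE 0.16, adjusted p 1.74e-18). The libraries of the days did not overlap. Gli2 averaged 4.32 ± 0.597 FPKM at day 7 and 4.12 ± 0.903 FPKM at day 2, and Gli3, which acts mainly as a repressor, 5.2 ± 0.722 and 6.19 ± 0.536 FPKM in the same order, neither of them called. Hhip, a secreted-ligand trap induced by the pathway, rose by 1.64 (SE 0.12, adjusted p 1.33e-13). In all, 9 of the 16 tested members of the pathway were higher and 0 lower, with a median difference of 1.13.

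Genes of notochord and floor plate, the sources of Shh in the embryo, rose as a list in 16 of 19 tested members, with 0 lower and a median difference of 2.68. Their summed level lay between 420 and 694 FPKM in the day 7 libraries and between 35 and 41.9 FPKM in the day 2 libraries. Foxa2, the forkhead factor of both structures, had 43.7, 60, 72, 53.2 and 68.8 FPKM at day 7, against 0.158, 0.501, 0.487, 0.537 and 0.543 FPKM at day 2, and rose by 5.37 (SE 0.30, adjusted p 5.02e-16). Its relative Foxa1 averaged 17 ± 5.59 FPKM at day 7 and 0.185 ± 0.0458 FPKM at day 2. Of the secreted products, Ntn1, netrin, the attractant of commissural axons, had 45.4, 72, 64.3, 65.3 and 77.9 FPKM at day 7 and 0.691, 0.254, 0.596, 0.801 and 0.5 FPKM at day 2, a rise of 5.38 (SE 0.21, adjusted p 5.78e-20). Spon1, F-spondin, rose by 2.23 (SE 0.20, adjusted p 3.31e-11). The mesodermal factor T, Brachyury, averaged 74.3 ± 21.4 FPKM at day 7 and 2.53 ± 0.864 FPKM at day 2, a rise of 4.41 (SE 0.32, adjusted p 1.63e-13), after a mean of 528 FPKM at day 5. Not called were Noto, a homeobox gene of the notochord, Chrd, which encodes the BMP antagonist chordin, and Foxj1, the factor of motile cilia. All of these 3 were higher at day 5. Chrd had a day 5 mean of 50.7 FPKM, against 6.41 ± 1.36 FPKM at day 7 and 3.14 ± 1.18 FPKM at day 2; the others are described with the transient genes.

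Along the dorsoventral axis calls were mostly of ventral factors. Of 14 ventral members tested 12 were higher, of 8 intermediate members 4, and of 8 dorsal members 2, with 1 dorsal member lower. The list held 14 ventral, 12 intermediate and 12 dorsal members, so some intermediate and dorsal members were not tested. Nkx6-1, a factor of ventral progenitors, had 44.7, 81.9, 49.9, 77.7 and 54.8 FPKM at day 7, against 0.124 FPKM in day 2 library 4 and a listing at 0 in the other four, a rise of 5.90 (SE 0.21, adjusted p 7.41e-21). Nkx2-2, of the domain next to the floor plate, had 9.58, 17.7, 9.71, 16.8 and 12.3 FPKM at day 7 and at most 0.49 FPKM at day 2, a rise of 3.44 (SE 0.14, adjusted p 3.04e-19). Olig2, of the motor neuron domain, rose by 4.54 (SE 0.27, adjusted p 2.49e-15). The paired box gene Pax6, of intermediate progenitors, averaged 4.35 ± 1.33 FPKM at day 7 and 0.47 ± 0.206 FPKM at day 2, a rise of 1.84 (SE 0.18, adjusted p 1.41e-10). Of the dorsal members, Lmx1a, of the roof plate and the ventral midbrain, lay between 5.32 and 9.72 FPKM at day 7 and at 0.24 FPKM or less at day 2. Pax3 stayed low, with values between 0.354 and 1.14 FPKM at day 7 and at most 0.103 FPKM at day 2, and was not called. The dorsal member that fell was Msx1, a homeobox gene that BMP signals induce: it had 0.523, 0.175, 1, 0.0968 and 0.493 FPKM at day 7, against 8.6, 6.74, 6.73, 8.1 and 9.28 FPKM at day 2, a difference of -2.63 (SE 0.17, adjusted p 1.26e-14).

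Factors of the head to tail axis other than Hox genes were higher in 7 and lower in 2 of 21 tested members, and their summed levels overlapped, from 41.8 to 84.8 FPKM at day 7 and from 78.5 to 110 FPKM at day 2. Of the forebrain members 4 of 7 tested were higher and 1 lower. Only 1 of 5 hindbrain members and 1 of 5 posterior members were higher. Some hindbrain neuron factors were counted in other lists, Phox2a with the ventral factors and Tbx20 with mesoderm. Phox2a, a homeobox factor of hindbrain neurons, averaged 15.7 ± 2.9 FPKM at day 7 and 1.56 ± 0.621 FPKM at day 2, a rise of 2.73 (SE 0.19, adjusted p 1.04e-13). Tbx20, a T-box factor of cranial motor neurons and heart, had 7.14, 12.5, 8.12, 9.53 and 5.55 FPKM at day 7, against at most 0.144 FPKM at day 2. It rose by 3.08 (SE 0.12, adjusted p 8.15e-20). Of the forebrain factors that rose, Hesx1 lay between 1.26 and 3.02 FPKM at day 7 and at 0.287 FPKM or less at day 2. Six3 lay between 1.15 and 2.66 FPKM at day 7 and at 0.178 FPKM or less at day 2. Egr2, a hindbrain segment factor, was not called, at 1.17 FPKM or less at day 7 and 0.685 FPKM or less at day 2. Of the midbrain and isthmus members 1 was higher and 1 lower among 4 tested. Otx2, which marks both epiblast and fore- and midbrain, fell by 1.30 on the log2 scale (SE 0.23, adjusted p 8.11e-06), with 23, 20.2, 35.2, 13.1 and 23.2 FPKM at day 7 and 52.8, 58.6, 62.5, 55.3 and 48.8 FPKM at day 2.

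Hox genes, which encode position along the body axis in the order of their place in 4 clusters, were active by paralog number. Of the 15 genes of paralogs 1 to 5, 13 were higher at day 7, with day 7 means up to 59.5 FPKM and no day 2 mean above 0.357 FPKM. Of the 12 genes of paralogs 6 to 9, 8 were higher, with day 7 means up to 19.7 FPKM. Of the 12 genes of paralogs 10 to 13, 0 were higher, and no day 7 mean was above 0.0151 FPKM. The highest Hox gene was Hoxb2, of the hindbrain (chr11:96212946-96215328 in the mm9 table), with 58.1, 57.9, 50.7, 74.5 and 56.1 FPKM at day 7, against 0.227, 0.119, 0.137, 0.263 and 0.265 FPKM at day 2, a rise of 5.64 (SE 0.21, adjusted p 2.7e-20). Hoxb1 had 28.8, 31.1, 19.6, 26.7 and 19.1 FPKM at day 7 and at most 0.648 FPKM at day 2, a rise of 4.26 (SE 0.20, adjusted p 7.1e-18). Hoxa2 lay between 13.4 and 25.4 FPKM and Hoxb4 between 4.91 and 9.65 FPKM at day 7, both listed at 0 in all day 2 libraries. Hoxd3 had 26.2, 19.7, 12.3, 28.1 and 29.9 FPKM at day 7 and at most 0.0639 FPKM at day 2, while Hoxd1, of the same cluster, was under 1 FPKM in all 10 libraries and was not tested. By cluster, 9 of 9 Hoxb members, 7 of 11 Hoxa members, 3 of 9 Hoxc members and 2 of 8 Hoxd members tested were higher. The Hox gene that fell was Hoxd13, with 1.75, 1.11, 1.95, 1.84 and 2.42 FPKM in the day 2 libraries and a listing at 0 in all day 7 libraries. Among the cofactors with which Hox proteins bind DNA, Meis2 averaged 33.7 ± 3.08 FPKM at day 7 and 0.261 ± 0.0938 FPKM at day 2 (4.78, SE 0.12, adjusted p 3.47e-24) and Meis1 rose by 4.75 (SE 0.16, adjusted p 3.19e-21).

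**Figure D2:**
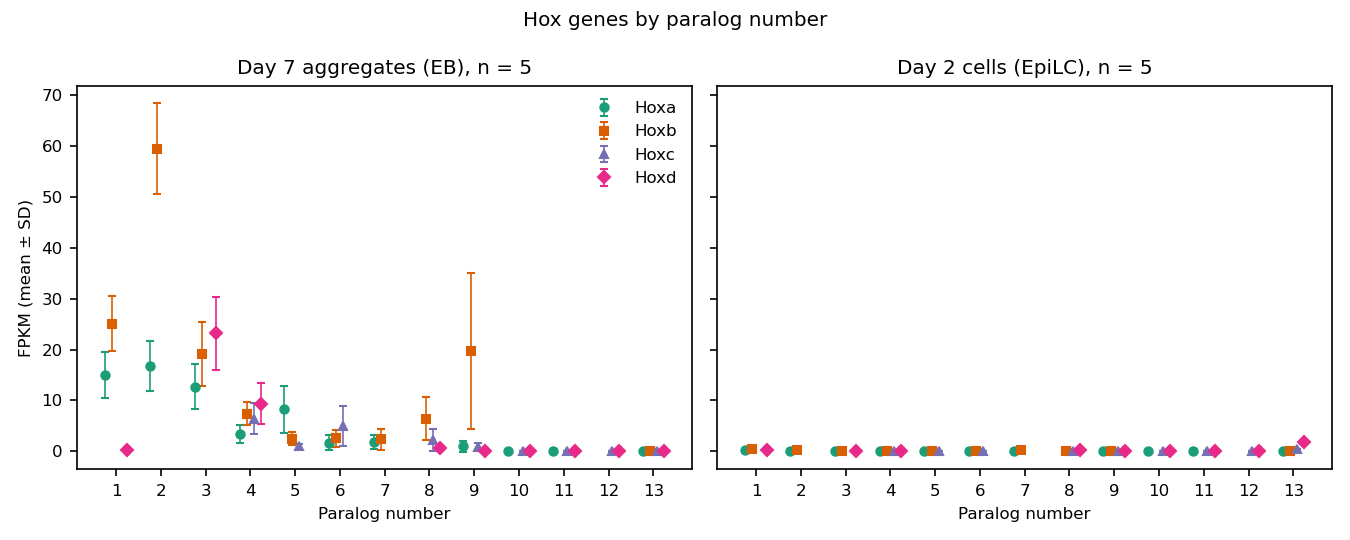
Mean FPKM (± SD over 5 libraries) of the 39 Hox genes in the table against paralog number, day 7 on the left and day 2 on the right, with a symbol per cluster. Day 7 means reach 59.5 FPKM for Hoxb2 and are near 0 from paralog 10 on; at day 2 none is above 1.81 FPKM, the mean of Hoxd13.

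Retinoic acid, which induces the 3 prime Hox genes and caudal neural identity, is made by retinaldehyde dehydrogenases, bound by cellular carriers, read by nuclear receptors and degraded by Cyp26 enzymes. All 6 tested carriers and uptake genes and all 3 degrading enzymes were higher, 2 of 6 synthesis genes were higher, and the receptors were mixed, with 1 higher and 2 lower of 6. Crabp1, a cytosolic carrier, was the most abundant of them, with 672, 962, 763, 917 and 701 FPKM at day 7, against 22.3, 24.8, 24.7, 26.1 and 22.1 FPKM at day 2, a rise of 5.00 (SE 0.33, adjusted p 2.6e-14). Crabp2, the carrier that delivers the ligand to receptors, averaged 324 ± 86.4 FPKM at day 7 and 41.5 ± 4.56 FPKM at day 2. Aldh1a2, which makes the ligand in mesoderm, had 38.4, 17.9, 14.6, 40.5 and 26.1 FPKM at day 7 and at most 1.7 FPKM at day 2, a rise of 3.72 (SE 0.29, adjusted p 8.44e-13). The enzyme Cyp26a1 lay between 12.8 and 29.5 FPKM at day 7 and at 0.105 FPKM or less at day 2, and Cyp26b1 lay between 4.61 and 18.8 FPKM at day 7 with library 2 far above the rest. The receptors changed places. Rarb, itself a direct target of the ligand, had 18.4, 11.7, 13.9, 15.7 and 18.3 FPKM at day 7, against 0.0612 FPKM in day 2 library 5 and a listing at 0 in the other four (4.02, SE 0.13, adjusted p 1.89e-21). Rarg had 10.3, 9.24, 11.9, 6.27 and 10.9 FPKM at day 7 and 67.1, 55.6, 57.8, 65.2 and 49.2 FPKM at day 2, a difference of -2.50 (SE 0.14, adjusted p 3.35e-16). The ratio of Rarb to Rarg within a library therefore ran from 1.17 to 2.51 at day 7 and was at most 0.00124 at day 2. Rara averaged 16.6 ± 1.39 FPKM at day 7 and 11 ± 2.65 FPKM at day 2 and was not called.

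Notch signalling, which holds neighbouring progenitors back from differentiation, rose in 15 of 28 tested members, with 1 lower. Of the ligands, Dll1 averaged 16.3 ± 4.43 FPKM at day 7 and 5 ± 1.49 FPKM at day 2, a rise of 1.53 (SE 0.22, adjusted p 2.36e-07). Dll4 rose by 2.06 (SE 0.12, adjusted p 1.2e-15). The receptor gene Notch1 rose by 1.46 (SE 0.21, adjusted p 3.35e-07). Notch3 averaged 19.1 ± 3.09 FPKM at day 7 and 19 ± 3.4 FPKM at day 2. Among targets, Hey1 had 34, 34.2, 34.4, 30.4 and 34.1 FPKM at day 7, the smallest spread of the list relative to its mean, against 0.918, 1.17, 0.789, 0.701 and 0.625 FPKM at day 2, a rise of 4.23 (SE 0.19, adjusted p 2.86e-18). Hes5 also rose, with a wide spread: its day 7 values were 17.3, 48.7, 9.11, 26 and 21.8 FPKM, and at day 2 none was above 0.167 FPKM. Lfng, the sugar transferase that tunes the receptor, averaged 30 ± 7.6 FPKM at day 7 and 3.2 ± 0.245 FPKM at day 2.

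Proneural and neurogenic factors, basic helix-loop-helix proteins and their partners that start neuron formation, rose in 15 of 18 tested members, of 24 listed. Every day 2 library was under 1 FPKM in 19 of the 24. Of the 15 that rose, 14 passed the midpoint of their change only at day 7. Neurod4 had 25.5, 34.5, 25.5, 34 and 17.9 FPKM at day 7, against 0.0482 FPKM in day 2 library 4 and a listing at 0 in the other four (4.78, SE 0.16, adjusted p 4.1e-21). Nhlh1, a factor of newly born neurons, rose by 4.09 (SE 0.12, adjusted p 1.5e-22). Nhlh2 lay between 6.49 and 15.7 FPKM at day 7 with all day 2 libraries listed at 0. Neurog1 averaged 4.16 ± 0.989 FPKM at day 7 and its day 2 libraries stayed at 0.121 FPKM or below. Atoh1, the factor of the rhombic lip and of hair cells, was listed at 0 in all day 7 libraries and did not pass the filter. Neurod1 averaged 4.38 ± 1.25 FPKM at day 7 and 4.6 ± 0.65 FPKM at day 2, with a mean of 0.172 FPKM at day 6 between them.

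Genes of neurons rose in 26 of 45 tested members, of 53 listed, with 2 lower. Of the 26, 18 passed the midpoint of their change only at day 7. Among cytoskeletal members, 15 of 20 were higher. Tubb3, the tubulin of neurons, had 158, 190, 166, 182 and 130 FPKM at day 7, against 19.9, 42.5, 25.9, 35.4 and 29.1 FPKM at day 2, a rise of 2.43 (SE 0.26, adjusted p 8.81e-10). Dcx, doublecortin of migrating neurons, had 7.06, 7.85, 6.1, 6.74 and 5.64 FPKM at day 7 and at most 0.425 FPKM at day 2 (2.62, SE 0.10, adjusted p 5.17e-20). Map2, of dendrites, averaged 14.8 ± 1.09 FPKM at day 7 and 2.42 ± 0.627 FPKM at day 2. Isl1, a homeobox gene of motor and sensory neurons, rose by 4.45 (SE 0.18, adjusted p 8.76e-20), with day 7 values between 19.3 and 34.8 FPKM. The groups did not overlap in any of these 4 genes, as holds for 61.8% of all genes tested. Of the synaptic members, 6 of 14 were higher and 1 lower.

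Progenitor genes were called in 32 of 38 tested members, 28 higher and 4 lower. Vim, the filament protein of radial progenitors and mesenchyme, had 308, 384, 358, 472 and 353 FPKM at day 7 and 24.8, 31.4, 23, 29.6 and 36.6 FPKM at day 2, a rise of 3.65 (SE 0.17, adjusted p 4.2e-18). Nr2f1, a nuclear receptor of patterned neural tissue, had 50.3, 71.2, 47.2, 72.5 and 39.7 FPKM at day 7, against at most 0.236 FPKM at day 2 (5.62, SE 0.22, adjusted p 8.73e-20). Sox21 rose by 3.83 (SE 0.12, adjusted p 1.3e-21) and Pou3f2 by 3.71 (SE 0.18, adjusted p 8.09e-18). The Sox genes did not move as a block: Sox4 and Sox11, which act in new neurons, rose by 2.32 (SE 0.14) and 2.00 (SE 0.09), while Sox3 averaged 30.4 ± 8.47 FPKM at day 7 and 41.6 ± 1.74 FPKM at day 2 and was not called. The ratio of Sox2 to Pou5f1, its partner in pluripotent cells, ran from 1.65 to 5.03 over the day 7 libraries and from 0.0216 to 0.0358 over the day 2 libraries.

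Axon guidance cues and their receptors were higher in 43 of 69 tested members and lower in 6. Slit1, a midline repellent, had 24.3, 45.9, 29.2, 32.3 and 37.2 FPKM at day 7, against 0.113, 0.149, 0.174, 0.414 and 0.193 FPKM at day 2, a rise of 4.82 (SE 0.13, adjusted p 8.75e-24). Efnb3, the ephrin of the midline, had 24.7, 36.8, 31.1, 32.6 and 37.8 FPKM at day 7 and 0.406, 0.594, 0.573, 0.636 and 0.468 FPKM at day 2 (4.44, SE 0.19, adjusted p 7.12e-19). By class, 6 of 8 ephrins, 4 of 6 slits and receptors, 7 of 10 plexins and neuropilins, 12 of 20 semaphorins and 5 of 11 Eph receptors were higher. The netrin receptor Dcc stayed at 0.299 FPKM or below at day 7 and was listed at 0 at day 2, in contrast to its ligand Ntn1 above.

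**Figure D3:**
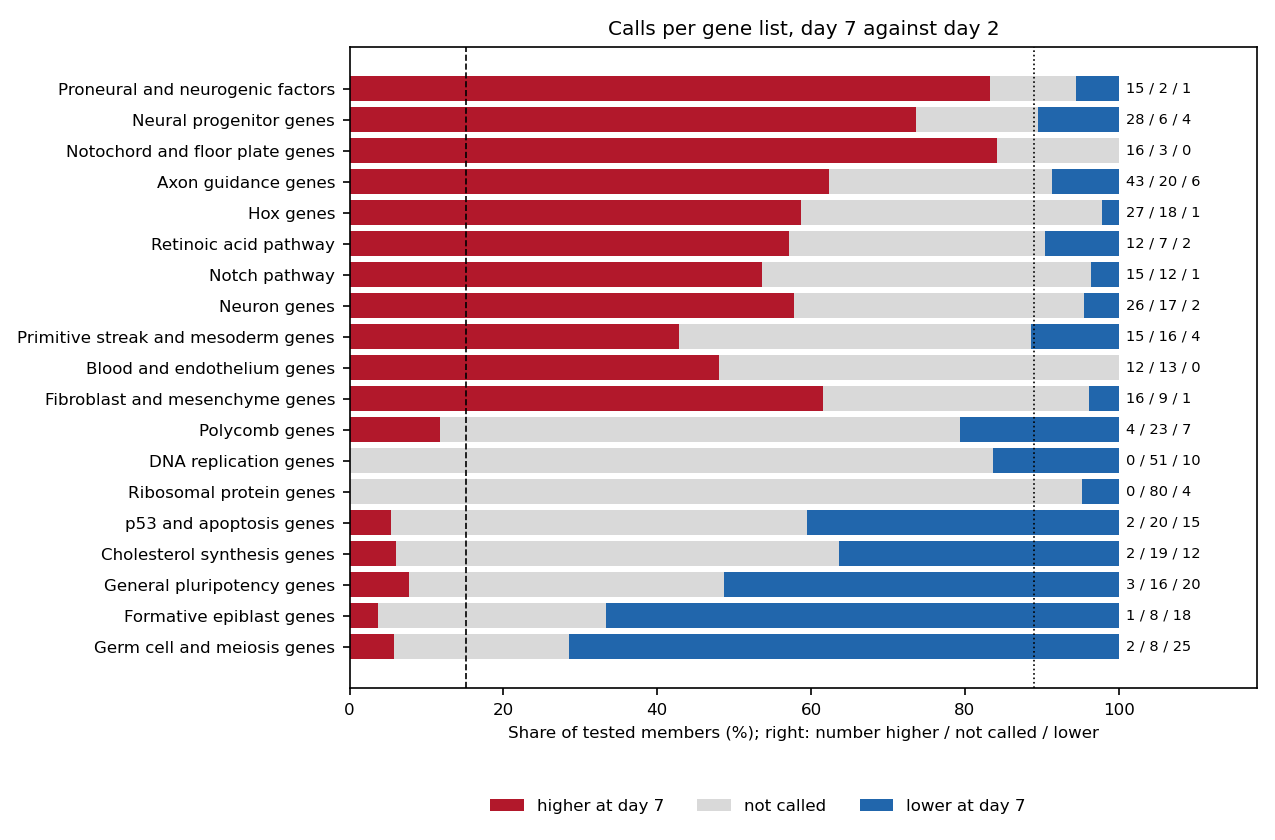
Share of the tested members of 19 of the 55 gene lists that were called higher (red), not called (grey) and called lower (blue) at day 7, with the counts in that order at the right. The dashed line marks the 15.1% of all genes called higher and the dotted line the 11.0% called lower, drawn from the right. Proneural factors (15 higher of 18 tested and 24 listed) and germ cell genes (25 of 35 lower) are among the lists farthest from these lines. The lists were written with earlier results of these data known.

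Markers of other cell types were counted over whole lists, since in bulk samples fewer cells of a type and less RNA per cell cannot be told apart. The part of these cell types in the results on other genes was not tested. Fibroblast and mesenchyme genes were higher in 16 of 26 tested members and lower in 1, with sums between 357 and 567 FPKM at day 7 and between 152 and 176 FPKM at day 2. Col3a1, a fibrillar collagen, had 51.1, 17.2, 39.1, 38.6 and 40.8 FPKM at day 7, against 0.383, 0.258, 0.399, 0.0804 and 0.11 FPKM at day 2 (4.87, SE 0.21, adjusted p 5.09e-19). Twist1 rose by 2.22 (SE 0.19, adjusted p 8.83e-12). Library 1 was the highest and library 2 the lowest of day 7 in Col3a1, and library 1 was the highest in Twist1 with 37 FPKM. Streak and mesoderm genes were higher in 15 of 35 and lower in 4. Of those, the somite factor Meox1 had 78.3, 35.3, 28.2, 64.2 and 44.1 FPKM at day 7, against at most 0.433 FPKM at day 2. The streak factor Eomes was called lower, with means of 0.596 FPKM at day 7 and 3.18 FPKM at day 2. Mixl1, also of the streak, had means of 0.0768 and 0.922 FPKM in the same order and was not called. It lay above both day 2 and day 7 at 1 of days 3 to 6. Foxc2, of somite and head mesenchyme, lay between 9.71 and 27.3 FPKM at day 7 with day 2 listed at 0.

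Blood and endothelium genes were higher in 12 of 25 tested members and lower in 0, with sums between 81.7 and 230 FPKM at day 7 and between 39.6 and 49.2 FPKM at day 2. The embryonic globin Hbb-bh1 had 45.2, 30.5, 7.04, 53.7 and 47.5 FPKM at day 7 and was listed at 0 at day 2. Its partner Hba-x had 29.7, 17.5, 9.29, 34 and 38.7 FPKM at day 7, against 0.77 FPKM in day 2 library 1 and a listing at 0 in the other four; library 3 was the lowest of both globins. The erythroid factor Gata1, by contrast, averaged 0.344 ± 0.133 FPKM at day 7 and 0.305 ± 0.288 FPKM at day 2. Endothelial Cdh5 had 9.45, 2.3, 3.84, 3.98 and 5.24 FPKM and Kdr 8.93, 3.33, 3.63, 3.96 and 4.87 FPKM at day 7, with library 1 highest in both, and at day 2 neither was above 0.0564 FPKM. Endoderm genes were higher in 18 of 28 and lower in 2, with 9 of 13 factors and 9 of 15 products higher. Among the factors with low levels, Sox17 lay between 1.1 and 2.05 FPKM at day 7 and was not called without library 1 (0.97). Gata6 lay between 0.59 and 1.48 FPKM at day 7 and was not called, but it lay above both days at 1 of days 3 to 6. Neural crest and placode genes were higher in 10 of 25 and lower in 3: Sox10, of migrating crest, was at 0.381 FPKM or below at day 7, and Foxd3, which marks both crest and pluripotent cells, had 1.03, 0.425, 0.349, 0.603 and 0.301 FPKM at day 7, against 22.1, 16.6, 28.2, 29.3 and 25 FPKM at day 2 (-4.03, SE 0.37, adjusted p 4.46e-11). Glial genes were higher in 5 of 9, but Gfap, of astrocytes, was at 0.212 FPKM or below at day 7. Trophoblast genes were 3 higher and 2 lower of 8. Of the muscle list 4 members were tested and 1 was higher, with sums from 14.7 to 36.2 FPKM at day 7 that overlapped those of 12.2 to 15.8 FPKM at day 2; the muscle factor Myod1 was at 0.0919 FPKM or below at day 7.

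Pluripotency genes were lower in 20 of 39 tested members and higher in 3, and their summed level lay between 595 and 941 FPKM at day 7 and between 5035 and 5655 FPKM at day 2. Pou5f1, the central factor Oct4, had 47, 36.6, 39.3, 18 and 40.4 FPKM at day 7, against 1097, 1062, 1107, 1150 and 1104 FPKM at day 2 (-4.96, SE 0.24, adjusted p 1.07e-17). The chromatin-binding Dppa4 and Dppa2, neighbours in the genome, fell together: Dppa4 had 6.32, 5.23, 5.69, 2.85 and 5.49 FPKM at day 7 and 127, 109, 115, 129 and 124 FPKM at day 2 (-4.35, SE 0.14, adjusted p 1.43e-21). Dppa2 had 2.43, 0.932, 1.81, 1.13 and 1.47 FPKM at day 7 and 46.1, 35.9, 32.9, 40.2 and 42.7 FPKM at day 2. Library 4 was the lowest of day 7 in Pou5f1 and Dppa4. Of factors of the naive state, Esrrb, Tfcp2l1 and Klf4 were not called. Esrrb averaged 5.52 ± 1.85 FPKM at day 7 and 6.53 ± 1.84 FPKM at day 2, Tfcp2l1 1.23 ± 0.409 and 1.31 ± 0.236 FPKM in the same order, and Klf4 0.806 ± 0.129 and 1.18 ± 0.644 FPKM. Tfcp2l1 and Klf4 were so low at day 2 that a fall would have reached the size required only at levels close to 0. Formative epiblast genes were lower in 18 of 27, with a median difference of -2.30. Fgf5, the usual marker of that state, had 2.86, 2.34, 2.1, 1.6 and 1.06 FPKM at day 7 and 22.4, 30.9, 23.4, 20.6 and 17.6 FPKM at day 2 (-3.01, SE 0.28, adjusted p 4.11e-11).

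Signalling pathways changed at different levels. In the Nodal and Activin pathway 12 of 34 members were higher and 10 lower. Nodal itself had 3.77, 2.58, 3.91, 1.32 and 3.59 FPKM at day 7, against 60.9, 55.2, 61.1, 62.8 and 63.1 FPKM at day 2 (-3.98, SE 0.25, adjusted p 7.09e-15), and the related ligand Gdf3 fell by 4.42 on the log2 scale (SE 0.15, adjusted p 2.67e-21). Its inhibitor Lefty2 fell by 3.86 (SE 0.30, adjusted p 7.51e-13), while Fst, follistatin, which binds Activin, rose by 1.42 (SE 0.21, adjusted p 7.82e-07). In the BMP pathway 11 of 34 members were higher and 1 lower. The ligand genes rose in 4 of 9, receptors and effectors in 1 of 7 and inhibitors in 2 of 12. The target genes rose in 4 of 6, with 1 lower. Bmp7 had 13.1, 9.73, 11.9, 7.68 and 12.3 FPKM at day 7, against 0.939, 1.74, 0.793, 0.831 and 0.973 FPKM at day 2 (2.54, SE 0.22, adjusted p 8.41e-12). Id genes, targets of BMP that block proneural proteins, were all higher: Id3 had 209, 180, 291, 175 and 202 FPKM at day 7 and 6.03, 3.88, 5.3, 6.45 and 4.43 FPKM at day 2 (5.09, SE 0.18, adjusted p 5.3e-21), and Id1, Id2 and Id4 rose by 4.42, 2.53 and 2.95. Bmp4, in contrast, averaged 4.53 ± 2.03 FPKM at day 7 and 2.1 ± 0.881 FPKM at day 2 and was not called.

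In the FGF pathway 9 of 36 members were lower and 3 higher. Fgf4, the autocrine ligand of pluripotent cells, had 3.43, 2.6, 1.65, 1.18 and 3.76 FPKM at day 7, against 81.3, 62.5, 79.6, 73 and 82.5 FPKM at day 2 (-4.50, SE 0.17, adjusted p 5.17e-20). The transcriptional readouts Etv5 and Etv4 fell by 3.20 and 2.87 on the log2 scale (SE 0.19 and 0.29, adjusted p 2.87e-15 and 4.8e-10). The phosphatase gene Dusp6, a feedback target, averaged 40.1 ± 7.42 FPKM at day 7 and 52.8 ± 4.33 FPKM at day 2 and was not called. In the Wnt pathway 19 of 54 members were higher and 5 lower. Lef1, the nuclear effector, had 7.23, 4.68, 4.81, 4.35 and 6.04 FPKM at day 7, against 31.1, 26.4, 42.4, 41.1 and 36.5 FPKM at day 2 (-2.50, SE 0.19, adjusted p 1.05e-12), and the ligand gene Wnt8a fell by 2.45 (SE 0.30, adjusted p 2e-08). The receptor Fzd2 had 72.2, 67.2, 77.4, 66.7 and 68.8 FPKM at day 7 and 12.6, 14.1, 13.8, 12.7 and 15.4 FPKM at day 2 (2.28, SE 0.07, adjusted p 8.51e-22). Wnt1, the ligand of the midbrain boundary and roof plate, was listed at 0 in all day 2 libraries and had 0.391, 1.4, 4.05, 0.262 and 3.57 FPKM at day 7, so that libraries 3 and 5 held the most.

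Most germline genes that are held silent in somatic cells were lower at day 7. Of 26 tested members of the methylation-sensitive set 23 were lower and 1 higher, and over all 35 germ cell and meiosis genes 25 were lower and 2 higher, with a median difference of -1.51. The day 2 means of the 23 lower genes ran from 1.56 FPKM for Tex101 to 111 FPKM for Rpl10l. Ddx4, the Vasa RNA helicase, had 0.475, 0.346, 0.205, 0.0982 and 0.311 FPKM at day 7, against 10, 9.85, 9.12, 8.08 and 9.02 FPKM at day 2 (-2.99, SE 0.13, adjusted p 3.6e-19). Mael, of the piRNA pathway, had 0.189, 0.196, 0.102, 0.199 and 0.616 FPKM at day 7 and 14.2, 8.73, 20.5, 17.8 and 16.6 FPKM at day 2 (-3.68, SE 0.14, adjusted p 3.53e-20). Hormad1 and Sycp3, of the meiotic chromosome axis, fell by 3.86 (SE 0.25, adjusted p 1.88e-14) and 2.63 (SE 0.16, adjusted p 2.25e-15). Day 2 library 2 was the lowest of its group in Sycp3 with 7.35 FPKM, in Hormad1 with 8.74 FPKM against 25.5 to 33.1 FPKM in the other four, and in Trap1a, a tumour rejection antigen gene of early cells, with 46.3 FPKM against 135 to 169 FPKM. It still lay above every day 7 library of these genes. Of the 2 members that were not called, Brdt, a bromodomain gene of spermatogenesis, averaged 0.432 ± 0.113 FPKM at day 7 and 0.512 ± 0.208 FPKM at day 2.

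The promoters of 4 of these genes are printed because they are the only matched members whose window holds both an E-box and an E2F type motif, so they are not typical of the set. These are types of site that the PRC1.6 complex of Mga, L3mbtl2, Pcgf6 and E2f6 binds. Each is the 250 bases before the RefSeq start, from the start-distal end to the start, on the strand of the gene, build GRCm38.p6, while the FPKM table was made on mm9. Capitals mark an E-box, CACGTG, or an E2F type motif, TCCCGC, read on either strand.
Ddx4, chr13:112652311-112652560, minus strand: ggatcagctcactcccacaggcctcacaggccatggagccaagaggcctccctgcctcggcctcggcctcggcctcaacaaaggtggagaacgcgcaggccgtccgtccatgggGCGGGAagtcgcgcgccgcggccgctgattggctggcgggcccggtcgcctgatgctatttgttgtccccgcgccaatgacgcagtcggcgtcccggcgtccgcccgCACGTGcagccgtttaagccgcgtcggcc
Sycp3, chr10:88459337-88459586, plus strand: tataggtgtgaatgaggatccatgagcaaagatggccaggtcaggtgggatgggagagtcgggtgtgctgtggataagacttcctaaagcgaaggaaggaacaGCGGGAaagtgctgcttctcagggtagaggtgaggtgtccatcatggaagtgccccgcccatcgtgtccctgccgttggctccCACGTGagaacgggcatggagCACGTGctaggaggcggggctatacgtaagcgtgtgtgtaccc
Mael, chr1:166238745-166238994, minus strand: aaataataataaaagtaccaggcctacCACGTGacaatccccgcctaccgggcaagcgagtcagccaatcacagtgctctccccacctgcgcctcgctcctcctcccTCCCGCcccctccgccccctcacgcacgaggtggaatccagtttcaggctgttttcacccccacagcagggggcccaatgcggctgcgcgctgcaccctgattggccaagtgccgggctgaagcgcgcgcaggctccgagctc
Hormad1, chr3:95559427-95559676, plus strand: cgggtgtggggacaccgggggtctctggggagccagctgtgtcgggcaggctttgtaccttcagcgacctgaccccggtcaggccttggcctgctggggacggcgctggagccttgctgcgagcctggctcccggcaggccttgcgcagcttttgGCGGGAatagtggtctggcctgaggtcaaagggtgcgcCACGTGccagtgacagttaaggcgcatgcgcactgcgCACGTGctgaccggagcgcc
An E-box lay within the window of 12 of the 24 members that matched the RefSeq table, of 27 members in the set, and in 6.86% of all 27025 symbols; the E2F type motif lay in 7 of 24 and in 18.8% of all symbols. These matches are a description of letters and not of binding. Of the complex's subunits, L3mbtl2 had 13.4, 14.6, 16.3, 15.3 and 15.4 FPKM at day 7, against 39.6, 44.2, 48.7, 54.4 and 44.3 FPKM at day 2 (-1.56, SE 0.09, adjusted p 8.95e-16). Pcgf6 fell by 1.05 (SE 0.12, adjusted p 5.03e-09). Mga averaged 11.7 ± 1.46 FPKM at day 7 and 21.7 ± 2.26 FPKM at day 2, under the size required, and E2f6 32.2 ± 1.84 and 24.8 ± 3.22 FPKM in the same order.

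DNA methylation enzymes changed by type. The de novo enzymes fell: Dnmt3b had 19.8, 19, 19.9, 16.2 and 17.4 FPKM at day 7, against 484, 553, 568, 586 and 537 FPKM at day 2 (-4.81, SE 0.16, adjusted p 1.31e-21). Dnmt3a had 19.5, 17.8, 17.5, 17.4 and 18.7 FPKM at day 7 and 109, 68.4, 107, 115 and 103 FPKM at day 2 (-2.38, SE 0.15, adjusted p 1.6e-14). The maintenance enzyme Dnmt1 averaged 60.4 ± 3.64 FPKM at day 7 and 59.4 ± 4.16 FPKM at day 2, so that its ratio to Dnmt3b ran from 2.74 to 3.91 at day 7 and from 0.105 to 0.111 at day 2. Of the oxidising enzymes, Tet1 had 4.54, 5.04, 3.41, 3.64 and 4.52 FPKM at day 7 and 22.6, 23.9, 26.2, 23.2 and 24.3 FPKM at day 2 (-2.27, SE 0.15, adjusted p 1.22e-14). Tet3 had 11.1, 12.6, 10.4, 11.3 and 12 FPKM at day 7 and 2.55, 3.53, 3.14, 2.99 and 3.62 FPKM at day 2 (1.58, SE 0.17, adjusted p 9.54e-10) and Tet2 rose by 1.58 (SE 0.12, adjusted p 7.29e-13). The ratio of Tet3 to Tet1 lay between 2.44 and 3.1 at day 7 and between 0.113 and 0.149 at day 2.

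Polycomb genes, which keep developmental genes silent, were higher in 4 and lower in 7 of 34 tested members. The PRC1 subunits exchanged paralogs. Phc1 had 28.1, 27.6, 28.5, 24.2 and 26.7 FPKM at day 7, against 132, 140, 155, 149 and 135 FPKM at day 2 (-2.35, SE 0.10, adjusted p 2.39e-19). Phc2 had 58.3, 64.7, 61.6, 59.6 and 57.1 FPKM at day 7 and 7.82, 12.8, 9.3, 12.7 and 10.8 FPKM at day 2 (2.41, SE 0.13, adjusted p 2.66e-16). Their ratio, Phc2 to Phc1, ran from 2.07 to 2.46 at day 7 and from 0.0594 to 0.0911 at day 2. Cbx7, a reader of the histone mark in stem cells, fell by 2.93 (SE 0.16, adjusted p 1.95e-16). Cbx2 averaged 33.3 ± 1.81 FPKM at day 7 and 19 ± 0.994 FPKM at day 2, a difference of 0.78 that was under the size required. The PRC2 enzyme Ezh2 averaged 70.1 ± 3.57 FPKM at day 7 and 57.1 ± 4.19 FPKM at day 2 and was not called. In the BAF remodeler, Smarca2 and Smarcd3, which differ from the subunits of stem cells, rose by 1.75 (SE 0.16, adjusted p 4.16e-11) and 1.87 (SE 0.16, adjusted p 1.47e-11). Smarcc1 averaged 54.6 ± 3.09 FPKM at day 7 and 75.3 ± 6.27 FPKM at day 2 and was not called. Among genes of H3K9 methylation 1 was higher and 2 lower of 19, and of the lamina 3 were higher and 2 lower of 17; Lmna averaged 5.56 ± 1.21 FPKM at day 7 and 5.48 ± 0.765 FPKM at day 2. Of the cohesin and condensin list 0 were higher and 5 lower of 25, among them Smc1b, the meiotic subunit, which fell by 2.01 (SE 0.16, adjusted p 1.25e-12).

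Small RNAs are not measured by this table, but their host loci are. The entry that spans the miR-290 cluster, D7Ertd143e Mir291a Mir291b Mir292 Mir293 Mir294 Mir295, had 3.74, 2.34, 2.92, 1.1 and 2.6 FPKM at day 7, against 17.7, 4.06, 18.1, 3.04 and 16.1 FPKM at day 2 (-1.61, SE 0.32, adjusted p 4.24e-05). Day 2 libraries 2 and 4 were far under the other 3, and library 4 overlapped the day 7 range. Since the entry names several loci, its value is uncertain for any of them. The mature forms from the cluster that share the seed of the embryonic stem cell family, bases 2 to 8 in capitals, are printed from RefSeq, build GRCm38.p6.
mmu-miR-291a-3p: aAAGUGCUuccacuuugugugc
mmu-miR-294-3p: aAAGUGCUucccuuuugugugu
mmu-miR-295-3p: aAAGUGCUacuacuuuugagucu
The locus of miR-124, the microRNA of neurons, was measured as the entry Mir124a-1 Mir124a-1hg Mir3078, with 8.81, 11, 143, 7.59 and 4.18 FPKM at day 7 and at most 0.376 FPKM at day 2 (3.70, SE 0.44, adjusted p 1.07e-08), library 3 far above the rest. Of the RNA-binding partners of let-7, Lin28a averaged 103 ± 16.3 FPKM at day 7 and 218 ± 22.4 FPKM at day 2 (-1.08, SE 0.14, adjusted p 2.76e-08), a call lost without day 7 library 4, while Lin28b averaged 22.4 ± 1.49 and 17.4 ± 1.45 FPKM in the same order and was not called. Hmga2, a chromatin architecture gene that let-7 represses, had 147, 124, 105, 130 and 124 FPKM at day 7 and 2.95, 4.75, 3.75, 2.91 and 3.87 FPKM at day 2 (4.78, SE 0.17, adjusted p 1.2e-20).

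Imprinted genes, which are expressed from 1 parental copy, were higher in 19 of 38 tested members and lower in 4. By parent, 12 of 20 paternally expressed genes were higher and 1 lower, and 7 of 18 maternally expressed genes were higher and 3 lower. The paternally expressed Peg3 had 99.4, 75, 87.2, 81.3 and 93.4 FPKM at day 7, against 8.92, 11.5, 16.8, 13.4 and 15.9 FPKM at day 2 (2.65, SE 0.21, adjusted p 1.37e-12). Igf2, the growth factor, had 190, 105, 165, 92 and 148 FPKM at day 7 and 1.93, 1.92, 2.16, 2.03 and 1.49 FPKM at day 2 (5.55, SE 0.24, adjusted p 9.36e-19). Libraries 1 and 3 were the highest of day 7 in it. The binding protein Igfbp5 rose by 5.49 (SE 0.26, adjusted p 9.38e-18), to between 230 and 314 FPKM at day 7. Igf2r, which clears the growth factor, averaged 24.9 ± 3.12 FPKM at day 7 and 14.7 ± 1.4 FPKM at day 2 and was not called.

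Adhesion genes exchanged cadherins. Cdh1, E-cadherin of epithelia, had 57.4, 38.1, 53.4, 38.4 and 49.8 FPKM at day 7, against 251, 284, 234, 254 and 269 FPKM at day 2 (-2.44, SE 0.15, adjusted p 8.86e-15). The ratio of Cdh2, N-cadherin of neural tube and mesoderm, to Cdh1 ran from 0.775 to 1.6 at day 7 and from 0.00665 to 0.00867 at day 2. Cdh11, of mesenchyme, rose by 3.94 (SE 0.19, adjusted p 7.34e-18). The mesenchymal regulator Zeb1 had 16.6, 20.3, 13.3, 18.7 and 15.7 FPKM at day 7 and at most 0.318 FPKM at day 2 (3.97, SE 0.12, adjusted p 4.28e-22). Snai1 averaged 9.68 ± 4.17 FPKM at day 7 and 2.19 ± 1.04 FPKM at day 2 (1.71, SE 0.28, adjusted p 3.43e-06). The epithelial splicing factor Esrp1 fell by 2.30 (SE 0.17, adjusted p 3.48e-13) and the adhesion protein gene Epcam by 2.60 (SE 0.18, adjusted p 5.55e-14). Keratins of simple epithelia went the other way: Krt8 averaged 202 ± 37.8 FPKM at day 7 and 42.8 ± 7.55 FPKM at day 2, and Krt18 rose by 1.44 (SE 0.21, adjusted p 4.27e-07). Collagens were higher in 18 of 27 tested members and lower in 0; Col4a1, of basement membranes, averaged 42.6 ± 9.4 FPKM at day 7 and 5.45 ± 1.44 FPKM at day 2, and Col2a1, of notochord and cartilage, had 73.7, 64.2, 93, 58.6 and 88.3 FPKM at day 7 and 2.19, 1.59, 2.89, 3.68 and 2.52 FPKM at day 2 (4.43, SE 0.26, adjusted p 1.49e-15). Integrins were mostly not called, with 3 of 12 higher and 1 lower.

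Cell cycle regulators were higher in 5 and lower in 10 of 59 tested members, and DNA replication genes in 0 and 10 of 61, with a median difference of -0.55. The shares called were 25.4% and 16.4% in that order, against 26.1% of all genes tested. The G1 cyclins exchanged: Ccnd2 had 70.9, 92.2, 49.2, 99.1 and 69.3 FPKM at day 7, against 1.85, 0.655, 3.44, 3.8 and 3.05 FPKM at day 2 (4.49, SE 0.28, adjusted p 3.69e-15), Ccne1 averaged 30 ± 2.15 FPKM at day 7 and 110 ± 6.63 FPKM at day 2 (-1.84, SE 0.16, adjusted p 1.7e-11). Ccnd1 averaged 86.7 ± 20.7 and 69.8 ± 6.2 FPKM in the same order and was not called. The licensing factor Cdt1 fell by 1.07 (SE 0.18, adjusted p 2.96e-06), while the helicase subunits Mcm2 and Mcm5 averaged 91.9 ± 4.18 and 75.4 ± 3.38 FPKM at day 7, against 150 ± 2.77 and 150 ± 10 FPKM at day 2, under the size required. The inhibitor Cdkn1b, p27, rose by 1.54 (SE 0.14, adjusted p 2.79e-11), and Cdkn1a, p21, a p53 target, fell by 1.91 (SE 0.17, adjusted p 1.12e-11). Of p53 and its targets 12 of 21 were lower and 0 higher. The apoptosis gene Pmaip1, Noxa, had 3.56, 3.94, 3.03, 4.72 and 3.83 FPKM at day 7, against 105, 87.1, 85.2, 73.9 and 93 FPKM at day 2 (-4.22, SE 0.16, adjusted p 2.04e-20). Mdm2, which removes p53, fell by 1.45 (SE 0.13, adjusted p 1.59e-11), Ccng1 by 1.70 (SE 0.16, adjusted p 9.44e-11) and Bax, the mitochondrial pore gene, by 1.45 (SE 0.16, adjusted p 1.51e-09); Trp53 itself averaged 97.3 ± 10 FPKM at day 7 and 196 ± 14.2 FPKM at day 2 (-1.01, SE 0.10, adjusted p 4.39e-10). The difference of Trp53 lay at the size required and fell below it without day 7 library 2 (-0.96), 4 or 5, and without day 2 library 3 or 4 (-0.98). It was also below it with the culture course as a block (-0.98) and with quantile normalization (-0.60).

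Sterol synthesis genes were lower in part. Of 33 members 12 were lower and 2 higher, and within the pathway proper 9 of 20 were lower and 0 higher. Fdps, which makes farnesyl diphosphate, had 97.4, 128, 110, 113 and 98.2 FPKM at day 7, against 432, 516, 470, 468 and 430 FPKM at day 2 (-2.07, SE 0.14, adjusted p 8.39e-14). Nsdhl had 24.5, 30.1, 27, 28.9 and 20.9 FPKM at day 7 and 82.5, 91.9, 113, 98.9 and 91.7 FPKM at day 2 (-1.83, SE 0.12, adjusted p 9.92e-15), and Mvd, mevalonate decarboxylase, fell by 1.47 (SE 0.13, adjusted p 1.03e-11). Of the control genes Insig1, which holds the sterol sensor in the endoplasmic reticulum, fell by 1.99 (SE 0.16, adjusted p 3.11e-12). Most of the called genes of this list moved early: 8 of the 12 had passed the midpoint of their change by day 3. The promoters of Nsdhl and Mvd, which both fell, are printed to show the CCAAT boxes, as 250 bases before the RefSeq start in GRCm38.p6 on the gene's strand, with CCAAT boxes, CCAAT on either strand, in capitals.
Mvd, chr8:122443423-122443672, minus strand: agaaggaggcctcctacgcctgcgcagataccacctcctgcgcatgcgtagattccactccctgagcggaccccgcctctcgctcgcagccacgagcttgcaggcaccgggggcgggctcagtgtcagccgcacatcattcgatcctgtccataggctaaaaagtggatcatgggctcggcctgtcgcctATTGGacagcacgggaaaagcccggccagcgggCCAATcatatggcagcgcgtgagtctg
Nsdhl, chrX:72918271-72918520, plus strand: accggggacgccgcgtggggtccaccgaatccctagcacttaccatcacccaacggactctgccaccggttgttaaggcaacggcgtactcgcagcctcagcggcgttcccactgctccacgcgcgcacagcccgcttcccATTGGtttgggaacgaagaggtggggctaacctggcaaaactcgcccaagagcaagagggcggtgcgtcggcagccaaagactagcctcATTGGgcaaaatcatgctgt
A CCAAT box lay in the window of 15 of the 16 pathway members that matched, of 22 in the list, and in 37.5% of all symbols; of these 16 members 5 were called lower, and all 5 had the box. The sterol element TCACNCCAC lay in 1 of 16 and in 1.22% of all symbols, with no inference from the absence in the others.

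In other metabolism single genes were called. Fasn, fatty acid synthase, averaged 55.8 ± 5.5 FPKM at day 7 and 146 ± 21.4 FPKM at day 2 (-1.36, SE 0.16, adjusted p 1.06e-08). Of glycolysis genes 5 of 25 were higher and 3 lower. The share called, 32%, was near the 26.1% of all genes tested, and the median difference was -0.33. The glucose transporter Slc2a1 had 223, 303, 218, 248 and 198 FPKM at day 7, against 79.5, 87.4, 65.2, 75.2 and 58.9 FPKM at day 2 (1.69, SE 0.21, adjusted p 3.27e-08). Slc2a3 rose by 2.41 (SE 0.20, adjusted p 5.75e-12) and the lactate exporter Slc16a3 fell by 2.39 (SE 0.29, adjusted p 1.12e-08). In arginine and polyamine metabolism Ass1, which makes argininosuccinate, had 4.08, 2.5, 4.72, 1.76 and 2.87 FPKM at day 7 and 40.1, 48, 38.1, 42 and 45.8 FPKM at day 2 (-3.43, SE 0.25, adjusted p 2.04e-13), and the polyamine enzymes Odc1 and Srm fell by 1.30 (SE 0.18, adjusted p 1.88e-07) and 1.85 (SE 0.13, adjusted p 2.32e-13). Vegfa, the endothelial growth factor induced by low oxygen, had 61.5, 50.4, 49.5, 52.5 and 74.2 FPKM at day 7 and 3.34, 11.7, 9.39, 14.8 and 6.37 FPKM at day 2 (2.65, SE 0.21, adjusted p 1.76e-12).

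Ribosomal protein genes and the respiratory chain had few called members, but their summed levels were lower at day 7 without overlap. The summed FPKM of all genes, given above, was also lower at day 7 without overlap. Its part in the lower sums of these lists was not tested, and the sums were not taken under another scaling. The ribosomal sum lay between 122246 and 134898 FPKM at day 7 and between 161815 and 178897 FPKM at day 2, and that of the respiratory chain between 12484 and 14083 FPKM at day 7 and between 18839 and 20164 FPKM at day 2. Of 84 ribosomal members 0 were higher and 4 lower, all of them paralogs with an l ending. Rpl10l, the testis copy of Rpl10, had 6.17, 1.86, 4.31, 1.08 and 3.73 FPKM at day 7, against 123, 62.3, 112, 139 and 119 FPKM at day 2 (-4.74, SE 0.23, adjusted p 8.81e-18). Rpl39l fell by 4.45 (SE 0.28, adjusted p 4.76e-15). Rps4l and Rps27l averaged 77.8 ± 12.6 and 332 ± 38 FPKM at day 7, against 681 ± 31.8 and 969 ± 86 FPKM at day 2. Reads may be shared between such copies and the parent genes, so these levels are uncertain. Of 82 respiratory chain members 1 was higher and 10 lower. The lower ones include subunits that most cells use: Cox7c, Cox7b and Cyc1 fell by 1.54 (SE 0.26, adjusted p 4.18e-06), 1.06 (SE 0.13, adjusted p 1.23e-08) and 1.03 (SE 0.10, adjusted p 2.79e-10). With quantile normalization Cox7b and Cyc1 were under the size required, at -0.60 each. They also include the testis subunits Cox7b2, with 0.376, 1.17, 0, 0.378 and 1.58 FPKM at day 7 and 29.1, 22, 27, 29.5 and 25.2 FPKM at day 2, and Cox6b2, which fell by 1.74 (SE 0.22, adjusted p 2.95e-08). The 1 higher member, Cox4i2, had 4.68, 8.41, 2.51, 2.54 and 3.51 FPKM at day 7 and was listed at 0 at day 2.

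The days between show when the changes came. For each called gene the day from which its mean stayed past the midpoint of its change was taken. Of the 2200 higher genes 81 reached it by day 3, 235 at day 4, 874 at day 5 (39.7%), 545 at day 6 and 465 at day 7. Of the 1604 lower genes 169 reached it at day 3, 407 at day 4, 616 at day 5 (38.4%), 327 at day 6 and 85 at day 7. Lists differed in this: of the 25 lower germ cell genes 4 and 18 had passed it by days 3 and 4, and of the 27 higher Hox and cofactor genes 11 did so at day 5 and 12 at day 6. Days 3 to 6 have 3 libraries each, and day 3 library 3 stands apart, with a summed FPKM of 990727.

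A further 500 genes, 3.43% of those tested, had a transient level and were not called between day 7 and day 2. At 1 of days 3 to 6 they lay above or below both ends by at least 1 on the log2 scale. The adjusted p was under 0.05 against each end. Their ends need not be equal, since smaller differences are not called. In the limma fit Foxj1 (-0.94, adjusted p 0.0271) and Nanog (-0.67, adjusted p 0.0132) were lower at day 7 than at day 2. Noto (0.67, adjusted p 0.042) and Enkur (0.64, adjusted p 0.037) were higher. Above both ends were 415, of which 301 peaked at day 5, and below were 85. Noto had a day 5 mean of 81.1 FPKM, against 0.675 FPKM at day 7 and a listing at 0 at day 2. Msgn1, of presomitic mesoderm, was listed at 0 in every day 7 and day 2 library and had 23.1 FPKM at day 5, and Nkx1-2, of neuromesodermal progenitors, had 47.8 FPKM at day 5, 0.294 ± 0.231 FPKM at day 7 and 0.386 ± 0.231 FPKM at day 2. Ciliary genes formed a group, with 15 of the motile cilia list above both ends and 0 below: Foxj1 had 82.9 FPKM at day 5, 2.78 ± 0.93 FPKM at day 7 and 6.16 ± 1.37 FPKM at day 2, Enkur 32.8 FPKM at day 5 and Dynlrb2 30.3 FPKM. In the mesoderm list 9 were above and 0 below. Nanog, the pluripotency factor, peaked earlier, with means of 19.7, 83.5, 183, 35.2, 10.8 and 12.5 FPKM from day 2 to day 7, and Cfc1, a coreceptor of Nodal, had 52.9 FPKM at day 5 and 43 FPKM at day 6.

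**Figure D4:**
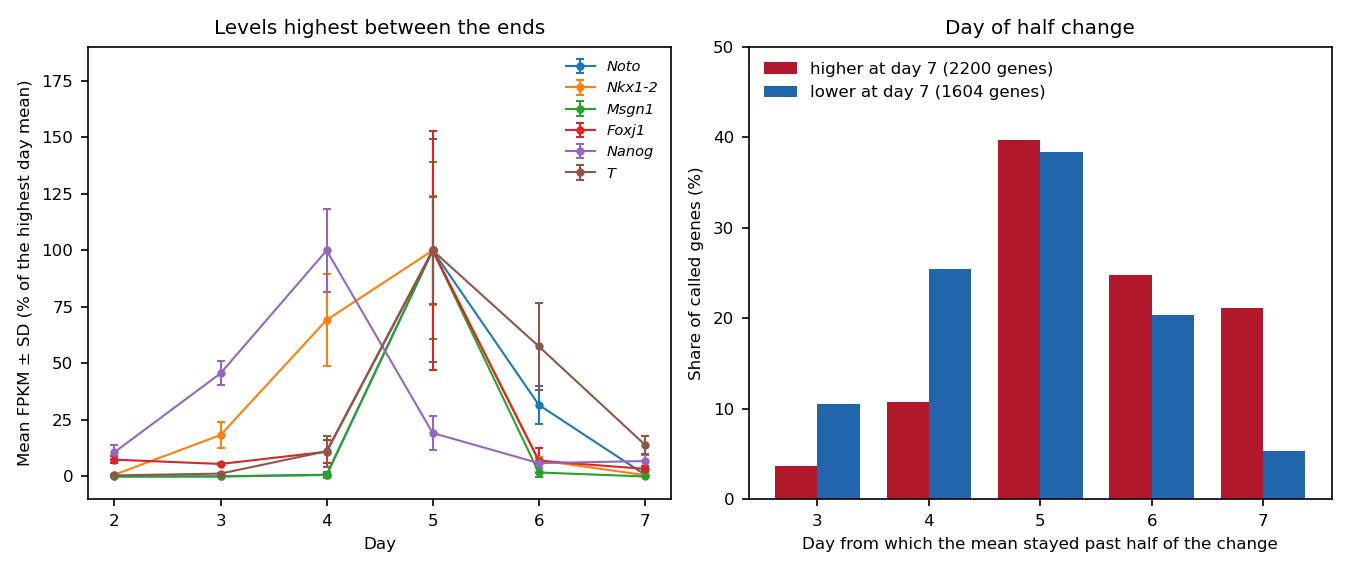
Left, day means of 6 genes from day 2 to day 7, in percent of each gene's highest day mean (± SD; 5 libraries at days 2 and 7, 3 at each other day): Nanog peaks at day 4 (183 FPKM), the rest at day 5. Right, share of called genes by the day from which their mean stayed past the midpoint of the change, higher genes (red) and lower genes (blue); day 5 holds 39.7% and 38.4%.

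The day 7 libraries did not agree equally on all genes. Over 1498 called genes with a day 7 mean of at least 10 FPKM, the coefficient of variation over the 5 libraries had a median of 10.8%, and 11 genes were above 50%. Hoxb9, of the trunk, was the most variable, at 77.4%, with 24.9, 23.6, 4, 40.7 and 5.42 FPKM; at day 2 none of its values was above 0.2 FPKM (3.81, SE 0.39, adjusted p 5.12e-10). The antisense RNA Hoxb5os (24.3, 22.3, 6.69, 40.3 and 14.7 FPKM) and Neurog2, a proneural factor (15, 15, 4.44, 21.6 and 5.09 FPKM), followed the same order at their ends, with library 4 highest and libraries 3 and 5 lowest, and so did Olig2 (22.5, 33.3, 11.8, 46.7 and 16.2 FPKM) and Pantr1 (15.5, 22.1, 6.88, 28.9 and 6.54 FPKM). Shh and Wnt1 ran the other way, with libraries 3 and 5 highest. Pax1, of the sclerotome (20.5, 3.42, 9.89, 11.5 and 18.7 FPKM), and the endothelial Plvap (21.5, 4.95, 7.97, 4.55 and 11.3 FPKM) had library 1 highest, as had Dppa5a, a pluripotency gene (166, 81.6, 80.4, 33.3 and 63.6 FPKM). Values of antisense genes such as Hoxb5os are uncertain because the use of strand in counting is not stated.

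**Figure D5:**
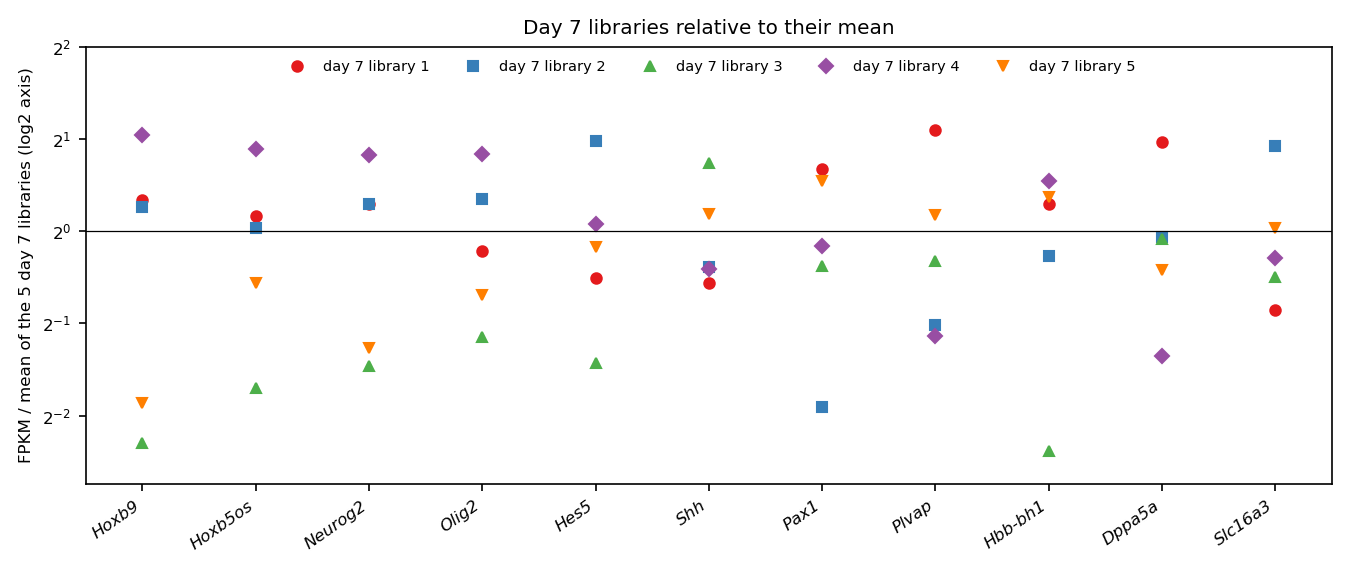
FPKM of each day 7 library divided by the mean of the 5 day 7 libraries (log2 axis) for 11 genes, by library. Libraries 3 and 5 are lowest for Hoxb9, Neurog2 and Olig2, and highest for Shh; the mean of each gene is at 1.

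The 10 libraries came from 2 sequencing projects of the labels, with 3 libraries of each day in project A (libraries 1 to 3) and 2 in project B (libraries 4 and 5), and the difference between the days was compared between them. At an unadjusted p under 0.05 in that comparison 416 of the 14595 genes passed, less than the share of 0.05 that passes by chance. For 2 of the genes tested, 0.0137%, the difference between day 7 and day 2 depended on the project (adjusted p 0.000567 for both). These 2 genes, 1810041H14Rik and Hist1h4j, are named after their values were seen: both stood at a listing of 0 throughout day 7 and in the 3 day 2 libraries of project A, and 1810041H14Rik had 1.57 and 1.58 FPKM and Hist1h4j 1.4 and 1.42 FPKM in the day 2 libraries of project B.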

How the data were processed

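RNA-seq libraries were made from total RNA with the TruSeq Stranded mRNA kit, per the labels' protocols. The deposited values are FPKM per gene; cutadapt 1.4.1, HISAT2 2.0.4, Cufflinks 2.2.1 and Cuffdiff are named in the submitters' processing notes, with mm9 as the build. Scaling between libraries and use of strand in counting are not given in the sources used here. Depth per library is unknown, so no counting interval is given.

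From these values log2(FPKM + 1) was computed for the 14595 of 24103 genes that reached 1 FPKM in 3 or more of the 34 libraries. All 34 libraries were fitted in limma 3.58.1 (R 4.3.3) with a mean-variance trend and no covariate, and p-values were adjusted by Benjamini-Hochberg over all genes tested. The steps were tested on simulated data. Groups followed titles. No 2 libraries held identical values. The alternatives were the pseudocount, filter, scaling, libraries in the fit, project, replicate and course blocks, the minimum difference and leaving out each library. The members and gene lists were chosen with earlier results of these data known. Genes named are the 12 largest rises and falls without overlap and with a mean of at least 10 FPKM, list members by role, the 10 largest transient genes and the 10 most variable called genes at day 7, from which a selection is printed. Results for a few genes are not reported here.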

Additional observations from a re-analysis of the deposited data

Results flagged for a closer look

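Among the 5 libraries of a day, 24 of 319 groups (genes named above with a mean of at least 1 FPKM on that day) had a highest or lowest library whose gap to the next, divided by the range, was above Dixon's critical value of 0.71. Chance alone flags about 1 in 20 groups.

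At day 7 library 1 stood apart with the highest value of Etv5 (25.8 FPKM) and Kdr (8.93 FPKM) and the lowest of Mcm2 (84.7 FPKM). Library 2 was far above the rest in Cyp26b1 (18.8 FPKM). Library 3 was highest in T (112 FPKM), Ccng1 (57.6 FPKM), Cdkn1a (26.7 FPKM) and the entry Mir124a-1 Mir124a-1hg Mir3078 (143 FPKM). Library 4 was highest in Hoxa2 (25.4 FPKM) and Smarcd3 (7.05 FPKM) and lowest in Hey1 (30.4 FPKM).

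At day 2 library 2 stood apart most often, with the lowest value of Dnmt3a (68.4 FPKM), Nodal (55.2 FPKM), Rpl39l (46.4 FPKM) and Trap1a (46.3 FPKM) and the highest of Bmp7 (1.74 FPKM), Col4a1 (7.96 FPKM), Lmna (6.79 FPKM), Mcm2 (155 FPKM) and Mvd (139 FPKM). Library 1 was lowest in Igf2r (12.3 FPKM), library 3 highest in Tet2 (1.3 FPKM), and library 4 highest in Chrd (5.18 FPKM) and lowest in Neurod1 (3.47 FPKM).

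The difference between day 7 and day 2 was not the same in the projects for 1810041H14Rik, by -1.36 (project B minus project A, log2 scale, SE 0.08), and for Hist1h4j, by -1.27 (SE 0.07), in the interaction test of limma with an adjusted p of 0.000567 for both.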

How the results depend on the processing

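Of the 208 tested genes named above, none that was called changed direction under any alternative run. Genes that were not called were not checked for a change of direction. Without 1 library 3 of the 208 genes lost their call (Trp53, Lin28a and Sox17). Foxj1 gained a call without day 2 library 1 or 2 or day 7 library 2 (-1.02, -1.01 and -1.03). Chrd gained one without day 2 library 4 (1.01). Mcm5 gained one without library 4 of either day, and Rpl10 without day 2 library 2 or day 7 library 4. Leaving out each library in turn gave 3802 to 3847 called genes, 2192 to 2240 higher, 1586 to 1619 lower, and 671 to 679 called list members (676 with all libraries); 8 of 110 list counts moved by more than 1.5 times, all small. Without a minimum difference 10305 genes were called, 5363 higher and 4942 lower, with 1191 list members; with a minimum of 2 on the log2 scale 1035 were called, 673 higher and 362 lower, with 325 list members. Transient genes numbered 793 with a pseudocount of 0.1 FPKM, 120 with a minimum difference of 2, and 473 to 533 without 1 library; leaving out libraries was here chosen after seeing the data. Genes with a project difference numbered 5 with a pseudocount of 0.1 FPKM, 35 with no filter on low values, and 2 to 7 without 1 library (7 without day 2 library 4, 4 without day 2 library 5). The causes of these moves were not tested. Quantile normalization gave 1845 higher and 1803 lower genes, and 8 named genes were then under the size required: Cdt1 (-0.83), Cox7b (-0.60), Cyc1 (-0.60), Lin28a (-0.65), Odc1 (-0.79), Pcgf6 (-0.89), Sox17 (0.82) and Trp53 (-0.60), while Foxj1 (-1.28) and Smo (1.06) passed it. With project A alone Pcgf6 (-0.98) and Trp53 (-0.93) lost their call, with project B alone Fst (0.91) and Hesx1 (1.34, adjusted p 0.21 in limma), and without the libraries whose cell type entry disagrees with the title Lin28a (-0.95) and Sox17 (0.96). Calls gained numbered 10 with a pseudocount of 0.1 FPKM, 3 in project A (Bmp4, Chrd and Mcm5), and 1 each in project B (Hist1h4j) and without the libraries of disagreeing entry (Mixl1).

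By the dates in the titles, 4 of the 5 same-numbered pairs of day 7 and day 2 libraries (1, 3, 4 and 5) come from the same culture course, and pair 2 does not. Deviations of same-numbered libraries from their group means correlated between -0.038 and 0.035. With the replicate number as a block 3804 genes were called, 2199 higher and 1605 lower, and no named gene changed its call. With the culture course as a block over those 8 libraries 3823 genes were called, 2207 higher and 1616 lower; Trp53 lost its call (-0.98), and Foxj1 (-1.10) and Rpl10 gained one. Depth is unknown, so that low values carry an error that cannot be given.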
